A study of Mus musculus with 11 samples.

Results

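DDC, a diet containing 3,5-diethoxycarbonyl-1,4-dihydrocollidine, was compared with no treatment in YFP+ mouse liver cells, sorted for a yellow fluorescent protein that traces the biliary lineage. Samples were chosen by their titles: 3 arrays of YFP+ cells from mice on DDC and 2 arrays of YFP+ cells from untreated mice (UTR), which is 5 of the 11 samples of the series. The other samples were 3 arrays of YFP+ cells from mice on CDE, the choline-deficient, ethionine-supplemented diet, and 3 arrays of YFP- cells. The CDE arrays lent their spread to the fit and gave the test of the difference between the diets, and the YFP- arrays served only to show the level outside the label. The titles of the YFP- arrays name no diet, so their levels cannot be matched to DDC or UTR. DDC was given for 5 weeks. The protocol in the labels counts 4 mice on DDC against 3 arrays, and it carries the same wording on every sample, so which mouse or pool each array came from is not given. The labels name neither the driver of the lineage label nor the strain, sex or age, and the titles call the cells liver progenitor cells. Cells were taken from the non-parenchymal pellet of perfused, enzyme-digested livers and sorted on YFP with a stain against dead cells.

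The biliary epithelium lines the bile ducts, modifies bile by transporting ions and water, and is held in place by keratin filaments and a laminin-rich basement membrane. DDC blocks the last step of heme synthesis, and the porphyrin that builds up plugs small ducts, which makes it a widely used model of cholestatic injury. Injured bile ducts are known to expand in a ductular reaction and to release chemokines that draw in leukocytes.

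All values are log2 expression levels, listed in replicate order (1, 2, 3), and differences are DDC minus UTR on the log2 scale with the SE of the limma fit. The adjusted p is limma's, with Benjamini-Hochberg adjustment over 23185 genes, and a gene was called at an adjusted p under 0.05. "Rose" and "fell" are used only for called genes. The labels do not tie arrays to separate animals, and the p-values therefore reflect the spread among these samples, part or all of which may be technical. In sorted bulk cells, fewer cells of a kind and less RNA per cell cannot be told apart.

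The sorted cells carried biliary markers in both groups. Each of the 24 measured genes of the biliary list was above all 3 YFP- arrays on all 5 arrays, and the mean level of the list was 10.59 to 10.70 on DDC and 10.56 to 10.62 on UTR, against 5.35 to 8.32 in YFP-. The hepatocyte transcripts Alb and Ttr were also high. Alb, serum albumin, was 11.85, 11.70 and 11.86 on DDC and 12.34 and 12.45 on UTR, against 10.61 to 12.44 in YFP-. Ttr, the thyroxine carrier transthyretin, was 12.77, 12.47 and 12.80 and 12.87 and 13.02. The mean level of the 27 measured hepatocyte genes was only 6.97 to 7.12 on DDC and 6.98 to 7.13 on UTR. Over all genes it was 6.04 to 6.07 on DDC and 6.05 to 6.07 on UTR. Leukocyte Ptprc (5.32, 5.34 and 4.51 on DDC, 4.71 and 5.15 on UTR) and endothelial Pecam1 (4.79, 4.85 and 4.87 and 4.90 and 5.21) lay far below their YFP- levels of 8.75 to 11.34 and 10.11 to 11.85. Correlations across genes were 0.9855 to 0.9879 within DDC, 0.9868 between the UTR arrays and 0.9798 to 0.9856 between the groups.

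The chemokines Cxcl1, Cxcl2 and Cxcl3, which carry the ELR motif and attract neutrophils, rose on DDC, and their promoters share the letters of a site for NF-kB, the transcription factor of inflammatory signalling. The sites are shown because these genes lie near each other on chromosome 5 and moved together. Promoters are those of RefSeq on GRCm38.p6, from 250 bases before to 50 after the gene's start, and the pattern searched on both strands was GGG, any base at the next pair of positions (NN), then TTTCC. The first line is at chr5:90891164-90891193, the second at chr5:90903792-90903821, the third at chr5:90903811-90903840 and the fourth at chr5:90786018-90786047, all on the plus strand, with the match in capitals.

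Cxcl1: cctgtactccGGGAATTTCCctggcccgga
Cxcl2, site farther from the start: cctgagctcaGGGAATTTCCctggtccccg
Cxcl2, site nearer the start: cctggtccccGGGCTTTTCCagacatcgtg
Cxcl3: gagctgcgggGGGAATTTCCccagcccggg

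These matches began 71 bases before the start in Cxcl1, 97 and 78 in Cxcl2 and 73 in Cxcl3. Cxcl1 held another match on the opposite strand, 89 bases before the start. The letters of the match were identical in Cxcl1, Cxcl3 and the farther site of Cxcl2. Of 27025 genes with a promoter in the table, 512 held the pattern (1.89%), against 3 of the 8 genes of the ELR chemokine and receptor list that have a promoter there, the ones shown. Among called genes with a promoter, it was in 3 of 15 that rose, the same chemokines, and in 1 of 11 that fell, Zfp937. The letters of the Zfp937 match were those of the nearer Cxcl2 site. A match describes letters only and is no evidence of binding.

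Over all genes, 37 of 23185 differed between DDC and UTR (0.160%). Of these, 22 rose (0.0949%) and 15 fell (0.0647%), and the lowest adjusted p was 0.0181, for Timp1. All 37 had DDC arrays that did not overlap the UTR arrays, as did 5686 genes in all (24.5%). At an unadjusted p under 0.05 the fit gave 2417 genes (10.4%). The calls depended on the fit: limma gave 0 calls from the 5 DDC and UTR arrays alone (2005 genes at an unadjusted p under 0.05) and 0 with all 11 arrays (1082 genes). Without DDC replicate 2 it gave 0 calls and without UTR replicate 2 it gave 1, whereas without UTR replicate 1 it gave 103. Leaving out DDC replicate 1 or 3 gave 5 and 4, and leaving out CDE replicate 1 or 3 gave 9 and 8. The direction of all 37 was the same in each of these settings. As their DDC and UTR arrays did not overlap, leaving out or adding arrays could not change it.

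**Figure D1:**
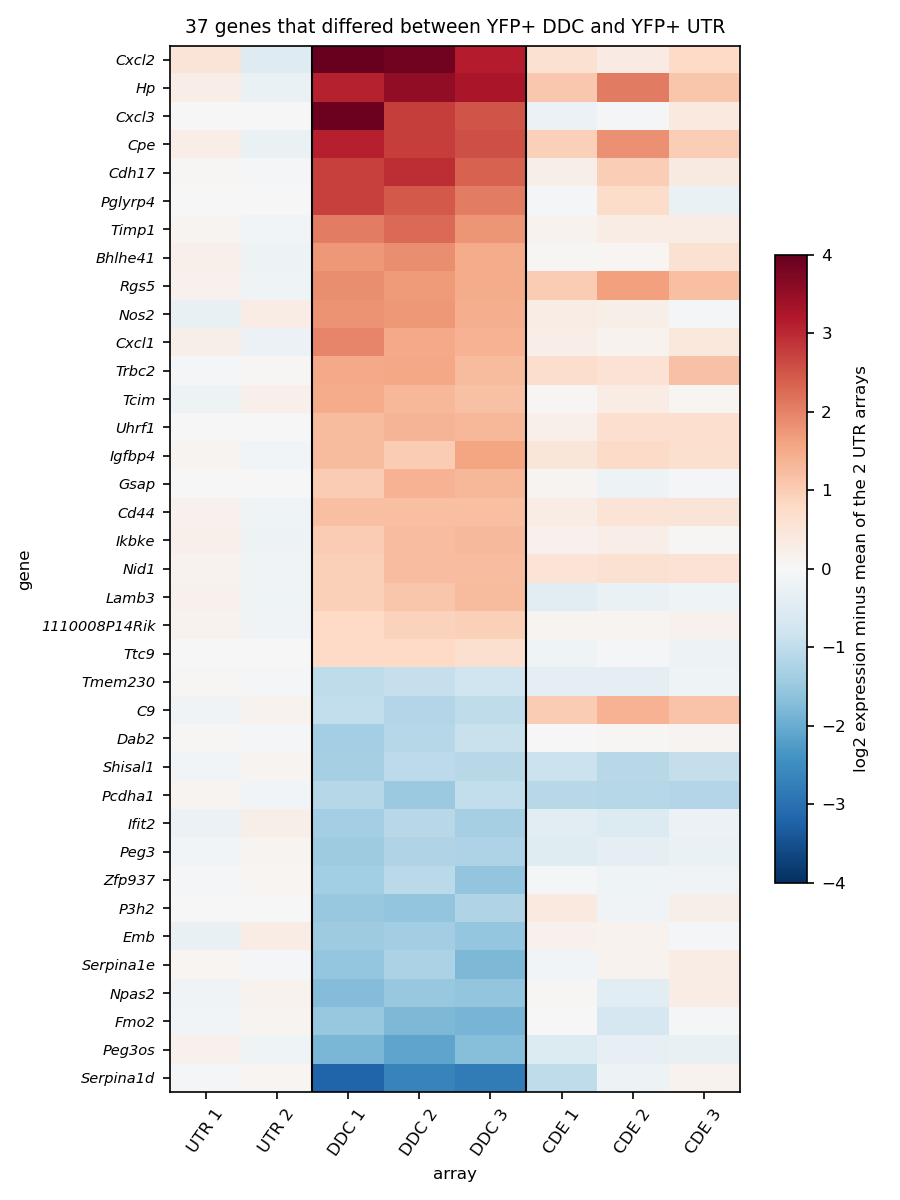
Log2 expression of the 37 called genes (rows) on the 8 YFP+ arrays (columns), each minus the mean of the 2 UTR arrays; red is higher and blue lower. The DDC columns differ from both UTR columns in every row, while the CDE columns are near 0 in rows such as Cxcl3 and Timp1, near the DDC columns in Pcdha1 and Shisal1, and opposite to them in C9.

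**Figure D2:**
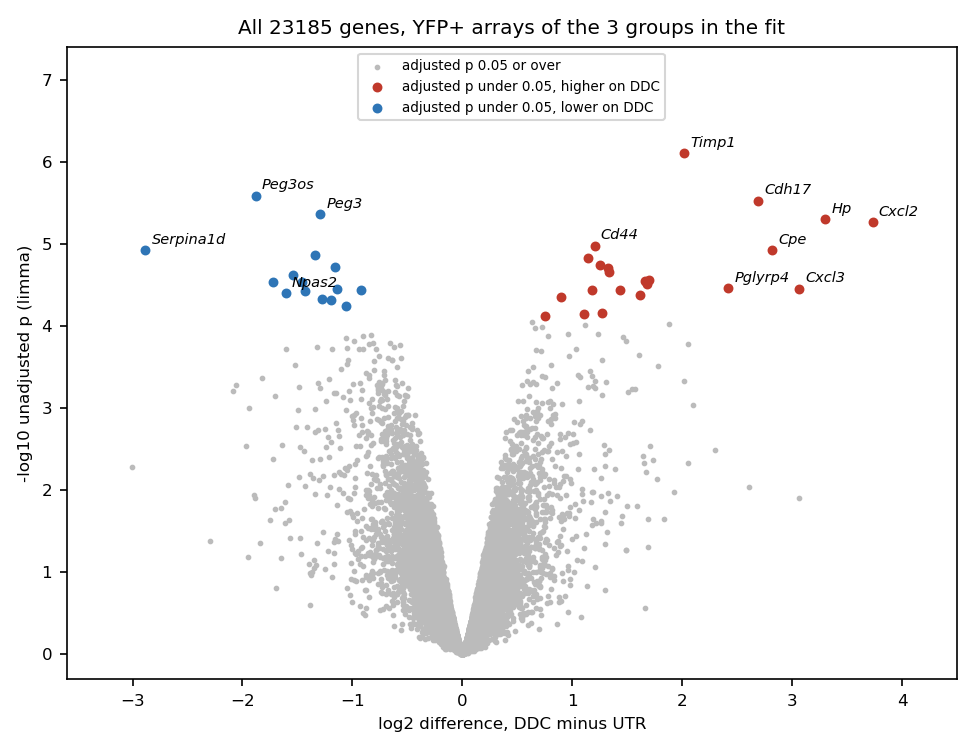
Log2 difference DDC minus UTR (horizontal axis) against the unadjusted limma p as -log10 (vertical axis) for 23185 genes. The 22 red and 15 blue points are the called genes, Timp1 the one with the lowest p and Cxcl2 the one farthest to the right.

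The neutrophil chemokines held the largest rise of any gene. Cxcl2 was 10.81, 10.46 and 9.75 on DDC and 7.11 and 6.10 on UTR, so the lowest DDC array lay well above the higher UTR array. The difference was 3.73 ± 0.36, or 13.3-fold (adjusted p = 0.0209, limma). DDC replicates 1 and 2 lay within the YFP- range of 9.95 to 11.90, and DDC replicate 3 lay below it. Cxcl3 was 8.02, 6.86 and 6.61 on DDC and 4.09 and 4.11 on UTR, where it was near the floor of these arrays (a mean under 4.33, the mean lower quartile of all genes). Its measured difference was 3.07 ± 0.38 (adjusted p = 0.0308, limma). Set against each UTR array's lower quartile, which stands in for a detection limit, it was at least 7.23-fold higher. DDC replicate 1 was the highest array for all 3 of these chemokines. Cxcl1 was 9.64, 9.18 and 9.06 on DDC and 7.91 and 7.44 on UTR, a difference of 1.62 ± 0.20 (3.07-fold, adjusted p = 0.0325, limma).

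Cxcl5, a further ligand of the neutrophil receptor, was 10.41, 10.59 and 10.53 on DDC and 8.54 and 9.89 on UTR. The DDC arrays were close together and above both UTR arrays, but the UTR arrays differed so much that the difference of 1.30 ± 0.34 was not called (adjusted p = 0.225, limma). Pf4, platelet factor 4, is in the ELR chemokine and receptor list but lacks that motif. It was 7.55, 7.70 and 7.33 against 7.20 and 6.38, also without overlap and not called. Ppbp and Cxcl15 overlapped between the groups, as did the receptors Cxcr1 and Cxcr2, whose levels were 5.51 ± 0.19 (SD, n = 3) and 5.30 ± 0.43 (SD, n = 3) on DDC. Of the 9 measured genes of this list, 3 rose and 5, Pf4 among them, had all DDC arrays above all UTR arrays, a background of 12.7% over all genes. The list's median difference was 0.74, against 0.01 for all genes, and was 0.33 without UTR replicate 2. The neutrophil and monocyte marker list did not move with it: 0 of its 16 genes lay above UTR on every DDC array and 1 lay below, and its median was 0.06.

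Of 20 measured chemokines for other leukocytes, 4 had every DDC array above UTR (background 12.7%) and none was called. Ccl2, which attracts monocytes, was 12.05, 11.95 and 12.10 on DDC and 11.56 and 8.82 on UTR, a difference of 1.84 ± 0.65 (adjusted p = 0.376, limma). The spread lay in the untreated pair, where replicate 1 was close to the DDC level and replicate 2 was far lower. The same held for Ccl20, a ligand for lymphocytes and dendritic cells (8.71, 9.24 and 8.99 against 8.51 and 6.46), and for Ccl7 (8.79, 8.29 and 9.02 against 7.82 and 6.28). Cxcl17, a mucosal chemokine, was 7.35, 7.53 and 7.59 against 6.89 and 6.67. In the list as a whole 10 of 20 differences were positive. The median was 0.03, and it was -0.08 without DDC replicate 1 and -0.04 without UTR replicate 2.

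**Figure D3:**
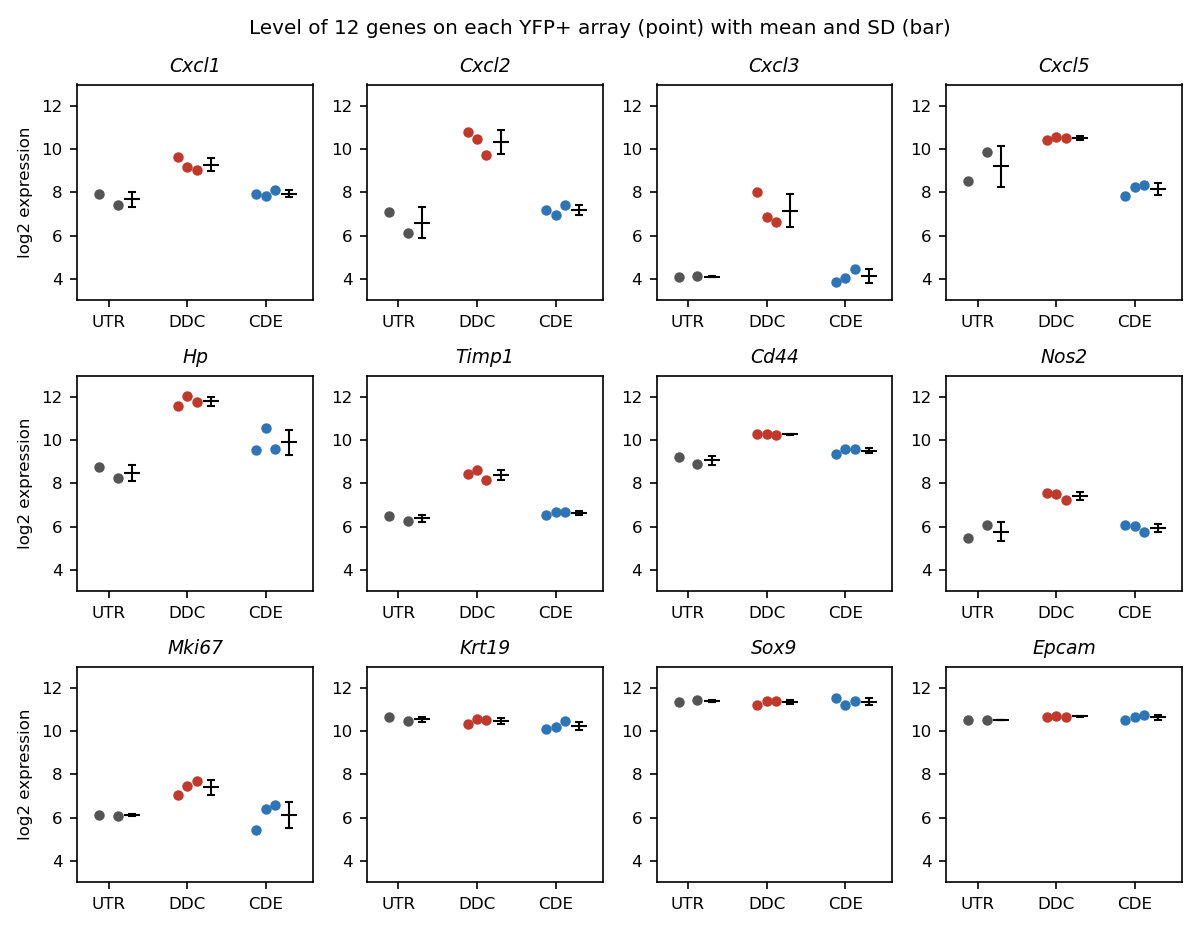
Log2 expression of 12 genes (panels) on each YFP+ array (points) in UTR (n = 2), DDC (n = 3) and CDE (n = 3), with the mean and SD beside the points. Cxcl1, Cxcl2, Cxcl3, Hp, Timp1, Cd44 and Nos2 are higher on DDC than in either other group, whereas Krt19, Sox9 and Epcam are level across groups.

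Inflammatory mediators and NF-kB targets held no called gene in their own list. Every DDC array lay above UTR for 11 of its 26 measured genes and below for 2, against 12.7% and 11.8% of all genes. The median difference was 0.37. Without UTR replicate 2 the median was 0.17. Tnf, the tumour necrosis factor gene, was 9.95, 9.72 and 9.48 on DDC and 8.57 and 7.86 on UTR. Its arrays did not overlap, and the difference was 1.51 ± 0.28 (adjusted p = 0.104, limma). Vcam1 and Icam1, adhesion molecules that bind leukocytes, differed by 1.54 ± 0.28 and 0.84 ± 0.18, with adjusted p of 0.103 and 0.138 (limma). Tnfaip2, a TNF-induced gene, differed by 1.00 ± 0.24, and Csf1, the macrophage growth factor, by 0.87 ± 0.36. Ikbke, a kinase of the IKK family that acts in NF-kB and interferon signalling, rose. It was 8.04, 8.27 and 8.32 on DDC and 7.22 and 6.84 on UTR, a difference of 1.18 ± 0.15 (adjusted p = 0.0308, limma). Its groups were separated by more than the spread within either.

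Of 20 measured genes of mucosal defence, 2 rose and none fell. Nos2, the inducible nitric oxide synthase, was 7.57, 7.51 and 7.23 on DDC and 5.47 and 6.08 on UTR, and rose by 1.66 ± 0.20 (3.17-fold, adjusted p = 0.0308, limma). Pglyrp4, which binds bacterial peptidoglycan, was 6.96, 6.68 and 6.26 on DDC and near the floor on UTR (4.20 and 4.23). It rose by at least 5.01-fold, with a measured difference of 2.42 ± 0.30 (adjusted p = 0.0308, limma). Slpi, an inhibitor of leukocyte proteases, was 10.65, 10.82 and 10.21 on DDC and 9.04 and 7.48 on UTR, with no overlap and no call (difference 2.30 ± 0.56, adjusted p = 0.190, limma). Pigr, the receptor that carries IgA into bile, was 5.34, 5.17 and 5.21 on DDC and 6.58 and 9.91 on UTR. Both UTR arrays were above the DDC arrays, but they differed from each other by more than the lower one differed from DDC, and the difference of -3.00 ± 0.80 was not called (adjusted p = 0.229, limma). In this list 4 genes lay above UTR on every DDC array and 1, Pigr, below (background 12.7% and 11.8%). The median difference of 0.02 became -0.19 without UTR replicate 1 and 0.38 without UTR replicate 2.

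Haptoglobin rose strongly without the rest of the acute phase group being called. Hp, which binds free hemoglobin, was 11.59, 12.03 and 11.77 on DDC and 8.75 and 8.24 on UTR. The difference was 3.30 ± 0.31, or 9.86-fold (adjusted p = 0.0209, limma), and every DDC array was above the YFP- arrays (6.68 to 9.62). Hpx, hemopexin, which binds free heme, was 8.71, 8.68 and 8.50 on DDC and 6.73 and 6.44 on UTR. It did not overlap either, and its difference of 2.05 ± 0.53 was not called (adjusted p = 0.219, limma). Fgb, the fibrinogen beta chain, was 10.81, 9.73 and 10.16 on DDC and 7.08 and 7.26 on UTR, a difference of 3.07 ± 0.96. The SE was wide because the CDE arrays, which lend their spread to the fit, were 7.72, 11.22 and 7.62 (adjusted p = 0.312, limma).

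The other fibrinogen chains were less far apart. Fgg was 11.48, 10.85 and 11.32 against 9.88 and 10.55 and Fga 10.74, 10.33 and 10.64 against 10.18 and 10.22, neither called. Steap4, a metalloreductase induced by inflammation, was 9.19, 8.83 and 8.37 on DDC and 6.93 and 6.90 on UTR, just outside the threshold at 1.88 ± 0.27 (adjusted p = 0.0556, limma). Lcn2, the iron-chelator binding protein lipocalin 2, was high in both groups, 13.16, 13.19 and 13.24 and 12.94 and 12.47. Osmr, the oncostatin M receptor, was 9.25, 8.76 and 8.85 against 8.37 and 7.76, and Stat3, the transcription factor of this response, 9.42, 9.51 and 9.55 against 9.25 and 8.80. Apcs, Lifr, Crp and Il6st lay below UTR on every DDC array, by 1.00, 0.51, 0.34 and 0.23 in that order, and none was called. Of the list's 24 measured genes, 1 rose, 9 lay above UTR on every DDC array and 4 below (background 12.7% and 11.8%). Its median was 0.14, and it was 0.07 without DDC replicate 3, 0.23 without UTR replicate 1 and 0.22 without UTR replicate 2.

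The heme and iron list shared Hp with the acute phase list and also held Hpx. Hmox1, the oxygenase that degrades heme, was 9.83, 9.36 and 8.74 on DDC and 8.52 and 7.77 on UTR, with DDC replicate 1 highest and no overlap, and was not called (1.17 ± 0.38, adjusted p = 0.328, limma). Slc40a1, the iron exporter ferroportin, was 8.13, 8.23 and 8.21 against 7.24 and 8.04. Of 21 measured genes, 1 rose, 7 lay above UTR on every DDC array and 3 below (background 12.7% and 11.8%). The median difference was 0.09.

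Timp1, an inhibitor of matrix metalloproteinases, had the lowest p of all genes. It was 8.42, 8.64 and 8.15 on DDC and 6.49 and 6.28 on UTR, with a rise of 2.02 ± 0.15 (4.05-fold, adjusted p = 0.0181, limma). The DDC arrays lay far above both untreated arrays and above the YFP- arrays (5.23 to 8.08). Plat, the tissue plasminogen activator, was 8.67, 8.36 and 8.42 on DDC and 7.13 and 6.63 on UTR, a difference of 1.61 ± 0.26 (adjusted p = 0.0767, limma). Plau, the urokinase, and its receptor Plaur were 6.92, 7.99 and 6.98 against 6.88 and 5.65 and 9.27, 8.85 and 8.67 against 8.64 and 7.73. For both, UTR replicate 1 came close to the lowest DDC array. Mmp7, a matrix metalloproteinase of ductal epithelium, was 12.28, 12.15 and 12.42 against 11.74 and 11.55, not called. In this list of 22 measured genes, 1 rose, 8 lay above UTR on every DDC array and 0 below (background 12.7% and 11.8%). Its median was 0.10, and 0.20 without UTR replicate 1.

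Genes of the basement membrane and of cell adhesion held 3 of the rises. Cd44, the hyaluronan receptor, was 10.27, 10.28 and 10.27 on DDC and 9.23 and 8.91 on UTR. The DDC arrays were nearly equal, and the rise was 1.20 ± 0.13 (adjusted p = 0.0308, limma). Lamb3, a chain of the laminin of epithelial basement membranes, was 8.33, 8.48 and 8.64 against 7.56 and 7.20, a rise of 1.11 ± 0.15 (adjusted p = 0.0463, limma). Nid1, nidogen, which links laminin to collagen, was 6.73, 7.00 and 7.00 against 5.91 and 5.63, a rise of 1.14 ± 0.13 (adjusted p = 0.0308, limma). Nid1 was higher still in YFP- (7.53 to 9.55). Of the 26 measured genes, 9 lay above UTR on every DDC array and 3 below (background 12.7% and 11.8%). The median difference was 0.21, but 0.11 without DDC replicate 2 and 0.10 without UTR replicate 2.

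P3h2, which hydroxylates proline in basement membrane collagen, fell. It was 5.65, 5.57 and 5.97 on DDC and 7.14 and 7.19 on UTR, with no array near the other group, and the difference was -1.43 ± 0.18 (adjusted p = 0.0308, limma). Cdh17, the liver-intestine cadherin, was 6.89, 7.11 and 6.52 on DDC and near the floor on UTR (4.19 and 4.10). It rose by at least 5.78-fold, with a measured difference of 2.69 ± 0.24 (adjusted p = 0.0209, limma). Pcdha1, a clustered protocadherin whose transcripts share exons with other members of its cluster, was 5.03, 4.67 and 5.19 on DDC and 6.26 and 6.06 on UTR. It fell by 1.20 on the log2 scale (SE 0.15, adjusted p = 0.0342, limma), and its signal cannot be assigned to that member alone.

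Every measured gene of mitosis had a higher mean on DDC than on UTR, and none was called. Mki67, the proliferation antigen Ki-67, was 7.04, 7.47 and 7.69 on DDC and 6.14 and 6.08 on UTR. The arrays did not overlap, and the difference was 1.29 ± 0.32 (adjusted p = 0.199, limma). Cdk1, the kinase that drives entry into mitosis, was 6.28, 6.99 and 7.72 against 5.40 and 5.26, a difference of 1.67 ± 0.45. Top2a, the topoisomerase of dividing cells, was 5.39, 7.03 and 6.76 against 4.74 and 4.50, a difference of 1.77 ± 0.50. For these genes DDC replicate 1 was the lowest of the DDC arrays. Ccnb2, a mitotic cyclin, was 7.41, 7.80 and 7.83 against 6.21 and 6.61, and Ccna2, the cyclin of S phase and G2, 5.25, 7.18 and 6.39 against 5.08 and 5.37, the latter with an overlap.

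Other mitotic genes gave smaller differences. Prc1, which bundles the microtubules of the central spindle, differed by 0.98 ± 0.28 and Cdc20, an activator of the anaphase-promoting complex, by 0.75 ± 0.27. The kinases Plk1, Aurkb, Aurka and Bub1 differed by 0.67, 0.67, 0.59 and 0.55. Kif11, a spindle motor, differed least, by 0.21 ± 0.13. In all, 18 of the 24 measured genes lay above UTR on every DDC array and 0 below, against 12.7% and 11.8% of all genes. Positive differences numbered 24 of 24, against 12251 of 23185 over all genes. The list's median difference was 0.60, and 0.49 to 0.80 when any 1 DDC or UTR array was left out. Against the mean of the UTR arrays, the list's median was 0.30, 0.79 and 0.83 on the DDC arrays. Levels were modest: the list's mean was 5.57 to 6.16 on DDC and 5.19 to 5.23 on UTR, against 6.01 to 6.53 in YFP-. The part that dividing cells of another type had in this was not tested.

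DNA replication genes held 1 rise. Uhrf1, which keeps DNA methylation through replication, was 7.42, 7.51 and 7.49 on DDC and 6.16 and 6.14 on UTR. Both groups were tight, and the rise was 1.32 ± 0.15 (adjusted p = 0.0308, limma). Gins2 and Mcm3, parts of the replicative helicase, were 7.61, 8.21 and 7.95 against 7.23 and 7.14 and 6.73, 6.91 and 6.62 against 6.11 and 6.18, neither called. Ccne1, the cyclin of entry into S phase, was 5.93, 6.49 and 6.31 against 5.52 and 5.62, and Pole, a replicative polymerase, 5.82, 6.23 and 5.68 against 5.53 and 5.14. Of 23 measured genes, 11 lay above UTR on every DDC array and 0 below (background 12.7% and 11.8%). The median difference was 0.37, and 0.24 without DDC replicate 2. Among p53 targets, 6 of 14 lay above UTR on every DDC array, against 12.7% of all genes, and 0 below, but only 3 of 14 lay above after quantile normalization. The largest differences were those of Bbc3, a promoter of cell death, at 0.46 ± 0.10, and of Cdkn1a, the cell cycle inhibitor p21, at 0.44 ± 0.15. Neither was called.

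Immediate early genes, which respond within minutes to stimulation and to tissue digestion, varied among the DDC arrays. The list's median against the UTR mean was 0.59, 0.31 and 0.03 on DDC replicates 1, 2 and 3. Fosl1, an AP-1 subunit, was 7.20, 5.91 and 5.22 on DDC and 4.89 and 4.81 on UTR, and Egr2, a zinc finger factor, 8.26, 7.16 and 6.76 against 6.31 and 5.95. In both, DDC replicate 1 was highest and replicate 3 closest to UTR. Of 22 measured genes, 7 lay above UTR on every DDC array and 0 below (background 12.7% and 11.8%), and 0 were called. The median difference was 0.33, and 0.18 without UTR replicate 1. Cxcl1, Cxcl2 and Cxcl3 had the same order of DDC arrays; the part of digestion in either was not tested. Hbegf, a ligand of the EGF receptor, was 9.82, 9.59 and 9.40 on DDC and 8.66 and 8.73 on UTR, a difference of 0.91 ± 0.18 (adjusted p = 0.120, limma).

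**Figure D4:**
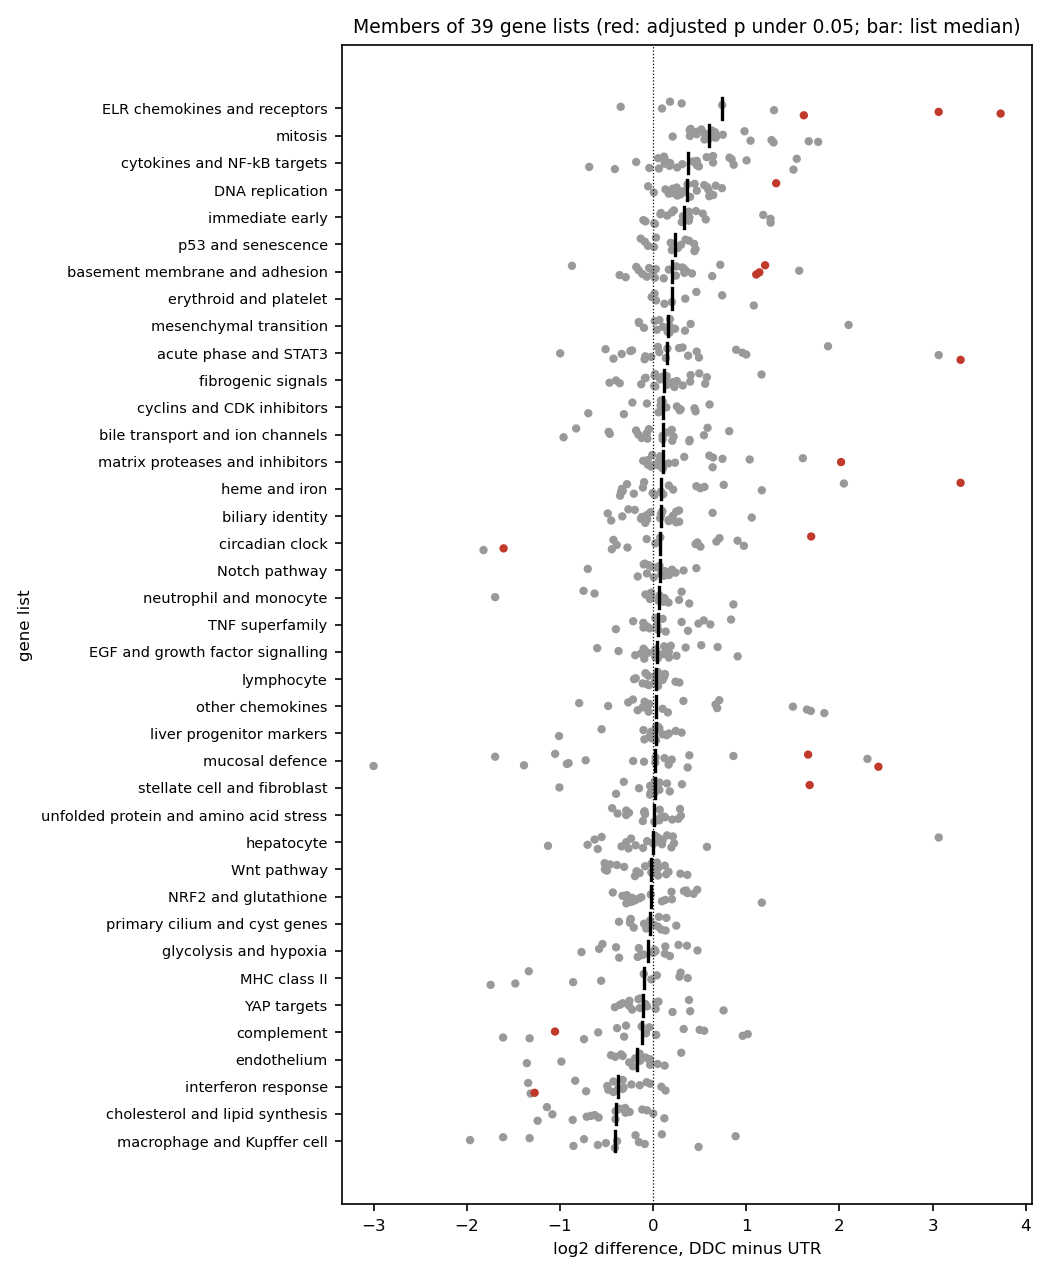
Log2 difference DDC minus UTR (horizontal axis) of each measured member (points) of 39 gene lists (rows), ordered by the list's median (bar); red points are called genes. The ELR chemokine and mitosis lists have the highest medians, 0.74 and 0.60, and the macrophage, cholesterol and interferon lists the lowest, -0.41, -0.40 and -0.37.

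Biliary identity genes were close to level. Krt19 and Krt7, keratins of bile ducts, were 10.34, 10.58 and 10.51 against 10.64 and 10.47 and 9.45, 9.86 and 9.86 against 9.64 and 9.31. Sox9, the transcription factor of bile duct cells, was 11.23, 11.38 and 11.40 against 11.35 and 11.45, and Epcam, an epithelial adhesion molecule, 10.67, 10.71 and 10.68 against 10.52 and 10.52. Their differences ranged from -0.08 ± 0.13 for Krt19 to 0.25 ± 0.17 for Krt7, none called. Cldn4, a tight junction protein, had the largest difference of the list, 1.06 ± 0.36, from 9.68, 9.93 and 9.31 against 9.06 and 8.10 (adjusted p = 0.348, limma). UTR replicate 2 was the lowest array there. Krt23 lay below UTR on every DDC array, 9.46, 9.64 and 9.33 against 10.08 and 9.77. Of 24 measured genes, 5 lay above UTR on every DDC array and 3 below (background 12.7% and 11.8%), and 0 were called. The list's median was 0.08, and it was -0.0011 without DDC replicate 3, 0.0076 without UTR replicate 1 and 0.0124 without UTR replicate 2.

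Transporters and pathways of duct development showed no called gene. Among 21 bile transport and ion channel genes, 4 lay above UTR on every DDC array and 3 below, Abcb1a, an efflux pump, with the largest difference at -0.96 ± 0.33, and Sctr, the secretin receptor, at 0.55 ± 0.20. In the Notch list 3 of 19 lay above and 0 below, in the Wnt list 1 of 23 above and 7 below, and among YAP targets 1 of 18 above and 6 below. Over all genes 12.7% lay above and 11.8% below. After quantile normalization 4 YAP targets lay above and 6 below. Lgr4 and Fzd7, receptors of the Wnt pathway, differed by -0.52 ± 0.22 and -0.51 ± 0.23, and Yap1 by -0.33 ± 0.14. Of 17 liver progenitor markers, 1 lay above and 2 below, among the latter Ncam1, a neural cell adhesion molecule, at 6.40, 6.41 and 6.80 against 8.09 and 7.02. Thbs1, thrombospondin, had the largest difference of 26 fibrogenic genes (1.16 ± 0.26), and Col1a1, the fibrillar collagen gene, was 5.51, 5.53 and 5.58 against 5.50 and 5.55.

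Serpina1d and Serpina1e, near-identical genes for alpha-1-antitrypsin that are made by hepatocytes, fell. Serpina1d was 3.86, 4.38 and 4.26 on DDC, near the floor, and 6.97 and 7.12 on UTR. It was at least 6.44-fold lower, with a measured difference of -2.88 ± 0.31 (adjusted p = 0.0308, limma). Serpina1e was 7.68, 7.98 and 7.43 against 9.31 and 9.16, a difference of -1.54 ± 0.18 (adjusted p = 0.0308, limma). Probes of one may also read the other, so the division between them is uncertain. C9, the last component of the complement attack complex, was 6.16, 5.96 and 6.12 on DDC and 7.00 and 7.26 on UTR, with no overlap, and fell by 1.05 (SE 0.14, adjusted p = 0.0390, limma).

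No gene of the hepatocyte list, which holds Serpina1c, was called. Serpina1d, Serpina1e and C9 are outside that list. Alb differed by -0.59 ± 0.10 (adjusted p = 0.0885, limma), Tat, a tyrosine-degrading enzyme, by -0.70 ± 0.20, Ahsg, fetuin-A, by -0.55 ± 0.33, and Apoh, a phospholipid-binding plasma protein, by -1.13 ± 0.47. Fgb stood on the other side. Of 27 measured genes, 1 lay above UTR on every DDC array and 8 below (background 11.8%), and the median difference was 0.00. Of the 14 members above the median level of all genes, 7 lay below and 1 above, with a median of -0.15. Over all 11592 genes above that level, 17.5% lay below and 11.7% above, with a median of -0.03. The list's mean level was 6.97 to 7.12 on DDC, 6.98 to 7.13 on UTR and 6.54 to 7.97 in YFP-. The part of hepatocyte RNA in the falls of Serpina1d, Serpina1e and C9 was not tested.

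Imprinted Peg3 and the overlapping antisense transcript Peg3os fell together. Peg3, a zinc finger protein expressed from the paternal allele, was 7.88, 8.07 and 8.04 on DDC and 9.16 and 9.40 on UTR, a difference of -1.29 ± 0.12 (adjusted p = 0.0209, limma). Peg3os was 7.46, 7.18 and 7.59 against 9.48 and 9.11, a difference of -1.88 ± 0.16 (adjusted p = 0.0209, limma). All DDC arrays of both lay more than the within-group spread below UTR, and all 5 arrays lay above the YFP- range of 5.03 to 6.84 and 4.56 to 6.48. As both come from 1 locus on opposite strands, they are not independent measurements.

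Clock genes moved in opposite directions. Npas2, a clock activator, fell: it was 6.72, 6.96 and 6.90 on DDC and 8.32 and 8.61 on UTR, a difference of -1.61 ± 0.20 (adjusted p = 0.0320, limma). Bhlhe41, a clock repressor, rose: it was 6.47, 6.62 and 6.25 against 4.94 and 4.56, a difference of 1.70 ± 0.20 (adjusted p = 0.0308, limma). Arntl, the partner of the clock activators, was 5.41, 6.74 and 6.02 on DDC and 7.75 and 8.01 on UTR, without overlap and not called (-1.82 ± 0.32, adjusted p = 0.101, limma). Per3, a period gene, and Tef, a clock output factor, were 7.61, 7.31 and 7.72 against 6.51 and 6.64 and 7.62, 7.51 and 7.89 against 6.67 and 6.86. Of 17 measured clock genes, 8 lay above UTR on every DDC array and 5 below (background 12.7% and 11.8%). The hour at which livers were taken is not given in the labels.

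Cholesterol synthesis genes were lower in level on DDC, and none was called. Hmgcs1, which makes the precursor of mevalonate, was 8.84, 9.42 and 8.29 on DDC and 9.98 and 10.20 on UTR. The arrays did not overlap, and the difference was -1.24 ± 0.30 (adjusted p = 0.182, limma). Sqle and Lss, later enzymes of the pathway, differed by -0.86 ± 0.24 and -0.71 ± 0.15. Stard4, a cholesterol carrier, and Insig1, a sterol sensor of the endoplasmic reticulum, differed by -1.14 ± 0.37 and -1.08 ± 0.33. Of 18 measured genes, 0 lay above UTR on every DDC array and 11 below (background 12.7% and 11.8%). The median difference was -0.40. The sterol response element, a target of the SREBP factors, was searched as TCACNCCAC on both strands. It was found in 1 of the 12 promoters of this list (8.33%), that of Hmgcs1 at chr13:119690204-119690232 on the plus strand, and in 1.44% of all promoters.

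Hmgcs1: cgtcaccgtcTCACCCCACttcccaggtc

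Among interferon response genes, 1 fell. Ifit2, which binds viral RNA, was 6.58, 6.81 and 6.59 on DDC and 7.71 and 8.16 on UTR, a difference of -1.27 ± 0.16 (adjusted p = 0.0338, limma). Ifit1, of the same family, was 6.99, 6.70 and 7.59 against 8.0 and 8.82, without overlap and not called (-1.32 ± 0.29, adjusted p = 0.156, limma). Ifi27l2a was 5.95, 5.30 and 6.22 against 6.67 and 7.67. UTR replicate 2 was the higher of the pair in each of these. Of 19 measured genes, 0 lay above UTR on every DDC array and 6 below (background 12.7% and 11.8%). The median difference of -0.37 rested on 1 array: it was -0.07 without UTR replicate 2 and -0.73 without UTR replicate 1.

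The interferon-stimulated response element, searched on both strands as GAAA, any base at the next pair of positions (NN), then GAAA, was in 9 of the 15 promoters of the interferon list (60.0%) and in 3.99% of all promoters. Neither Ifit2, the gene that fell, nor Ifi27l2a was among these 9. Of the 11 promoters found for called genes that fell, 0 held the pattern. The promoter of Ifit1 held a pair of matches on the opposite strand, at chr19:34640775-34640804 and chr19:34640794-34640823 (gene on the plus strand). They are shown because Ifit1 has the second largest difference of the list, with the match in capitals.

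Ifit1, site farther from the start: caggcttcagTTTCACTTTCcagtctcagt
Ifit1, site nearer the start: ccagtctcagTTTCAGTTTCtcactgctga

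Of 15 measured macrophage markers, 10 lay below UTR on every DDC array, against 11.8% of all genes, and none was called. Vsig4 and Clec4f, receptors of Kupffer cells, were 4.51, 4.82 and 5.30 against 7.04 and 6.64 and 5.88, 5.57 and 5.86 against 6.69 and 6.56, far below their YFP- levels of 8.94 to 12.50 and 8.17 to 12.10. C1qb, a chain of complement C1q made by macrophages, was 7.18, 7.82 and 6.29 against 8.62 and 8.22. H2-Ab1, a class II histocompatibility chain, was 8.32, 8.18 and 8.34 on DDC and 9.42 and 10.10 on UTR, against 11.51 to 12.29 in YFP-. None of these was called, with adjusted p from 0.182 (Vsig4) to 0.462 (C1qb) in limma. Of 15 macrophage genes, 14 lay below YFP- on all 5 arrays. The 1 that lay above UTR on every DDC array was Cd14, the lipopolysaccharide receptor, at 11.58, 11.54 and 11.56 against 11.00 and 10.34. The list's mean level was 6.07 to 6.30 on DDC, 6.58 to 6.70 on UTR and 8.96 to 11.34 in YFP-. Of 11 class II genes, 5 lay below UTR on every DDC array and 1 above, where all genes gave 11.8% and 12.7%, and 4 of 11 differences were positive. The class II median of -0.10 became -0.32 without DDC replicate 2 and -0.36 without UTR replicate 2. Of 17 complement genes, 5 lay below and 3 above, and 1, C9, was called lower. The part of macrophage RNA in the class II and C1q levels was not tested.

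Further rises were spread over several functions. Cpe, carboxypeptidase E, which trims peptide hormones, was 9.10, 8.74 and 8.54 on DDC and 6.26 and 5.69 on UTR, and rose by 2.82 ± 0.30 (7.05-fold, adjusted p = 0.0308, limma). The lowest DDC array was well above the higher UTR array. Rgs5, a regulator of G protein signalling that also marks pericytes, was 11.81, 11.65 and 11.44 against 10.11 and 9.79, a rise of 1.68 ± 0.20 (adjusted p = 0.0308, limma). It was lower in YFP- (5.19 to 8.36). Of the 18 stellate cell and fibroblast genes, only Acta2, Dcn, Thy1, Vipr1 and Rgs5 lay outside the UTR range on every DDC array. Of these, 3 lay below and 2 above (background 11.8% and 12.7%). Igfbp4, which binds insulin-like growth factors, was 9.77, 9.52 and 10.08 against 8.62 and 8.42, and Tcim, a regulator of transcription, 10.16, 9.99 and 9.85 against 8.47 and 8.86. Their rises were 1.27 ± 0.17 and 1.33 ± 0.15 (adjusted p = 0.0454 and 0.0308, limma).

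Gsap, the gamma-secretase activating protein, was 8.79, 9.17 and 9.11 against 7.74 and 7.79, and Ttc9, a tetratricopeptide repeat protein, 5.38, 5.38 and 5.20 against 4.55 and 4.58. Their rises were 1.25 ± 0.14 and 0.75 ± 0.10, the latter with the highest adjusted p of all calls (0.0468, limma). A gene known by its Riken name 1110008P14Rik was 9.50, 9.62 and 9.64 against 8.84 and 8.54. Trbc2, a constant segment of the T cell receptor, named after its values were seen, was 8.64, 8.66 and 8.38 against 7.07 and 7.19 and 8.01 to 13.37 in YFP-, a rise of 1.43 ± 0.18 (adjusted p = 0.0308, limma). Of 17 lymphocyte markers, 1 lay above UTR on every DDC array and 2 below (background 12.7% and 11.8%), with a median of 0.03.

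Further falls included Fmo2, a flavin monooxygenase, at 9.59, 9.31 and 9.24 on DDC and 10.98 and 11.22 on UTR, a difference of -1.72 ± 0.21 (adjusted p = 0.0308, limma). Emb, embigin, a chaperone of lactate transporters, was 7.00, 7.05 and 6.87 against 8.14 and 8.72, a difference of -1.46 ± 0.18 (adjusted p = 0.0308, limma). Dab2, an endocytic adaptor, was 8.19, 8.43 and 8.66 against 9.62 and 9.51 and 9.92 to 11.53 in YFP-, a difference of -1.14 ± 0.14 (adjusted p = 0.0308, limma). Zfp937, a zinc finger protein, Shisal1, a membrane protein, and Tmem230, a membrane protein of secretory vesicles, fell by 1.34, 1.16 and 0.92 on the log2 scale. In each the DDC arrays lay wholly below UTR.

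The largest differences without overlap held further genes, all uncalled and, apart from S100a4 of the mesenchymal transition list, outside the lists. Aldh1a7, an aldehyde dehydrogenase, was 10.00, 10.15 and 9.25 on DDC and 7.26 and 7.13 on UTR, with CDE arrays of 9.38, 6.66 and 6.49. S100a4, a calcium-binding protein, was 8.0, 7.68 and 7.87 against 6.04 and 5.46, Guca2b, uroguanylin, 8.76, 8.31 and 8.78 against 7.10 and 6.04, and Sprr1a, a cornified envelope protein, 10.50, 9.87 and 10.03 against 8.81 and 7.90. Ctla2a, related to protease inhibitors, was 6.50, 7.44 and 6.66 against 5.19 and 4.52, and the histone gene H2bc8 5.95, 8.24 and 7.17 against 5.68 and 4.71. On the lower side, Cd36, the fatty acid receptor, was 7.02, 7.01 and 7.49 against 9.46 and 9.47, far below its YFP- level of 10.13 to 11.80. Ces1c, a carboxylesterase, was 4.60, 4.99 and 4.79 against 6.07 and 7.68, Serpinf1, pigment epithelium-derived factor, 7.21, 6.01 and 5.80 against 8.19 and 8.61, and Akr1c20, an aldo-keto reductase, 6.23, 6.24 and 4.76 against 7.25 and 8.01. C2cd4b was 5.93, 6.69 and 6.08 against 8.39 and 7.95 and Iigp1, an interferon-induced GTPase, 6.66, 6.99 and 6.79 against 7.62 and 9.45. In all, 115 genes were over 1 log2 unit higher on DDC and 131 over 1 unit lower.

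The response was then set against that of the CDE diet, tested as DDC minus CDE in the same fit. DDC differed from CDE in 269 genes (1.16%), 97 higher (0.418%) and 172 lower (0.742%), or 130 higher and 141 lower after quantile normalization. Of the 37 genes that differed from UTR, 31 also differed from CDE, 18 of them higher and 13 lower on DDC. The comparisons share the DDC arrays, so these counts are not independent. Cxcl2 was 7.20, 6.94 and 7.40 and Cxcl3 3.87, 4.02 and 4.47 on CDE, both close to UTR, with DDC minus CDE of 3.16 ± 0.32 and 3.04 ± 0.34 (adjusted p = 0.0107 and 0.0139, limma). Hp lay between, at 9.56, 10.58 and 9.60 on CDE (1.88 ± 0.28, adjusted p = 0.0280, limma). C9 was 8.16, 8.51 and 8.29 on CDE, above UTR, whereas it was below UTR on DDC (-2.24 ± 0.12, adjusted p = 0.00167, limma).

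In 6 called genes the diets were not told apart: Rgs5, Nid1, Igfbp4, Trbc2, Pcdha1 and Shisal1. Pcdha1 was 5.04, 5.03 and 4.98 and Shisal1 6.08, 5.84 and 5.98 on CDE, close to DDC, with DDC minus CDE of -0.05 ± 0.14 and -0.18 ± 0.12. Mki67 was 5.45, 6.38 and 6.56 on CDE (1.27 ± 0.29, adjusted p = 0.0844, limma). The mitosis list's median against the UTR mean was -0.18, 0.23 and 0.20 on the CDE arrays, below the 0.30 to 0.83 on DDC. Among uncalled genes, Cxcl5 was 7.84, 8.25 and 8.37 and Slpi 7.04, 8.76 and 7.51 on CDE, and both were higher on DDC (2.36 ± 0.31 and 2.79 ± 0.50, adjusted p = 0.0199 and 0.0453, limma). Leaving out single arrays gave 16 (without CDE replicate 3) to 123 (without CDE replicate 2) calls between the diets when the array was from CDE, 41 to 98 when it was from DDC, and all 11 arrays gave 1.

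**Figure D5:**
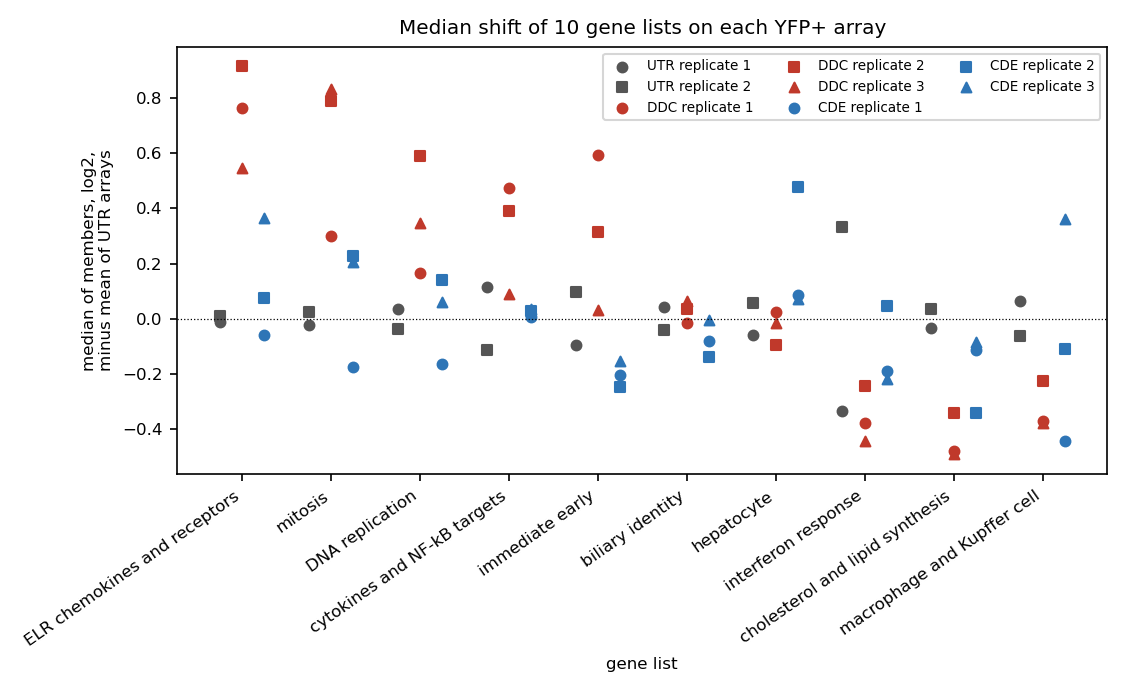
Median over the members of 10 gene lists on each YFP+ array, as log2 minus the mean of the 2 UTR arrays (vertical axis); colour gives the group and shape the replicate. The 3 DDC arrays lie above both UTR arrays in the ELR chemokine, mitosis and DNA replication lists and below both in the cholesterol and macrophage lists, while in the interferon list the UTR arrays are as far apart as -0.33 and 0.33.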

How the data were processed

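Expression was read as the log2 values that the authors deposited, 1 per feature and array, on Affymetrix arrays per the labels' protocols. Base 2 was inferred from the range of the values, and the background correction, normalization and probe summary were not given in the sources used here. No further normalization was applied. Of 25206 features, 23185 had 1 gene symbol and were tested, 2021 were unnamed, and all 23185 matched RefSeq by gene number. Some listed genes are not reported here.

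The 8 YFP+ arrays entered a group-means fit by limma 3.58.1 under R 4.3.3 (eBayes without trend, 5 residual degrees of freedom, two-sided tests, Benjamini-Hochberg adjustment, threshold 0.05), so that the spread of all 3 groups was pooled. The number of arrays limits the precision. A group mean under 4.33, the mean lower quartile of the DDC and UTR arrays, was taken as near the floor. The fit was tested on simulated data. The samples compared, the 39 gene lists (746 of 793 entries measured, 717 genes) and the motifs were chosen with earlier results of these data known. Genes named are the called genes, at most 5 members without overlap per list with under 3 calls, fixed markers, the 12 largest uncalled rises and falls without overlap, and other chemokine, acute phase, mitosis and biliary members as levels. The rule left out predicted genes, receptor segments and small RNAs; 1110008P14Rik and Trbc2, called genes of these kinds, were named after their values were seen. Tfb2m and H2-T22, among the 12 falls, were near the floor on DDC and are given no values. Alternatives were other sets of arrays, quantile normalization, median centring, trend, robust and weighted fits, filters on low genes, all features, a replicate block and leaving out each array. Deviations of same-numbered DDC and UTR arrays correlated weakly and negatively, which with 2 UTR arrays cannot decide whether the numbers pair samples.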

Additional observations from a re-analysis of the deposited data

Results flagged for a closer look

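For 47 of the genes named above, the effect of DDC differed from that of the CDE diet by the test of DDC minus CDE in the same limma fit (adjusted p under 0.05); these tests share the DDC arrays with the comparison against UTR. Of the 47, 31 were also called against UTR and 16 were not. Among inflammatory and defence genes the log2 difference DDC minus CDE was 3.16 for Cxcl2, 3.04 for Cxcl3, 1.34 for Cxcl1, 1.5 for Nos2, 2.29 for Pglyrp4, 1.02 for Ikbke and 1.88 for Hp. Among matrix and adhesion genes it was 1.77 for Timp1, 0.75 for Cd44, 1.41 for Lamb3, 2.16 for Cdh17 and -1.60 for P3h2.

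For the clock genes it was -1.58 for Npas2 and 1.45 for Bhlhe41, and for the imprinted locus -0.92 for Peg3 and -1.48 for Peg3os. The plasma protein genes gave -2.52 for Serpina1d, -1.65 for Serpina1e, -2.24 for C9 and -0.73 for Alb, which was not called against UTR. The replication gene Uhrf1 gave 0.80 and the interferon gene Ifit2 gave -0.86. The remaining rises were 1.57 for Cpe, 1.19 for Tcim, 1.30 for Gsap, 0.77 for 1110008P14Rik and 0.89 for Ttc9, and the remaining falls -1.46 for Fmo2, -1.54 for Emb, -1.18 for Dab2, -1.21 for Zfp937 and -0.61 for Tmem230. In C9 the diets lay on opposite sides of UTR.

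Alb and 15 further genes were not called against UTR. Among these 15, DDC minus CDE was 2.36 for Cxcl5, 0.89 for Cxcl17, 1.40 for Tnf, 0.92 for Icam1, 1.13 for Cd14, 2.79 for Slpi, 1.85 for Steap4 and -0.90 for Lifr among genes of inflammation, defence and the acute phase. It was -1.86 for Arntl, 1.18 for Per3 and 1.22 for Tef among clock genes, and 1.20 for Hbegf, 1.45 for Plat, 1.92 for Ctla2a and -2.27 for Ces1c.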

How the results depend on the processing

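The count of 37 genes (22 higher, 15 lower) held within 1.5 times under quantile normalization, median centring, trend, robust and weighted fits, both filters on low genes, all features, and without CDE replicate 2, at 33 to 46. A similar count did not always mean the same genes. The 34 calls without CDE replicate 2 held 23 of the 37, and the calls of each other setting just named held 31 to 37 of them. With the 5 DDC and UTR arrays alone, and with all 11 arrays, limma gave 0 calls in either direction (lowest adjusted p 0.0538 and 0.165). Leaving out each array gave 0 to 103 genes (0 to 39 higher, 0 to 64 lower). The 5 left without DDC replicate 1 were Timp1, Cxcl3, Gsap, H1f1 and Serpinf1, the 4 left without DDC replicate 3 were Timp1, Cxcl2, Cdh17 and Peg3os, and the 1 left without UTR replicate 2 was Olfr1303; H1f1, Serpinf1 and Olfr1303 are not among the 37. The 37 kept their direction in every setting that tested them. For other sets of arrays this was fixed in advance, since their DDC and UTR arrays do not overlap. Leaving out a DDC or UTR array moved no difference by more than 1.25 times. The causes were not tested.

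Between the diets, 269 genes (97 higher, 172 lower) became 1 with all 11 arrays (0 higher, 1 lower, the small RNA Rnu7), and 16 to 211 with single arrays left out (7 to 85 higher, 9 to 126 lower). With a replicate block, limma gave 0 calls for DDC minus UTR (0 higher, 0 lower, 2450 genes at an unadjusted p under 0.05) and 61 for DDC minus CDE (24 higher, 37 lower). Whether the numbers pair the samples cannot be decided here. Deviations of DDC and UTR arrays with the same number correlated at -0.0586 and -0.0493, and those of CDE and UTR at -0.0119 and 0.1306. The deviations of the 2 UTR arrays mirror each other, so these values are not independent.

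Differences near 0 changed sign. Ptprc was -0.0064, -0.0130 and -0.0935 without DDC replicate 1, DDC replicate 2 and UTR replicate 1, and ran to 0.4005 without DDC replicate 3. Col1a1 was -0.0707 with the replicate block, -0.0102 after quantile normalization, -0.0079 after median centring, -0.0036 without DDC replicate 3 and -0.0041 without UTR replicate 1, and ran to 0.0377 without UTR replicate 2. Of 351 list medians recomputed under these settings, 76 moved by more than their spread over the DDC arrays. A signal near the floor gives only a bound, and 2 untreated arrays carry the whole spread of that group.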
